A study of Saccharomyces paradoxus and Saccharomyces cerevisiae and Nakaseomyces glabratus with 58 samples.

Results

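Wild type Saccharomyces paradoxus and a strain labelled delta sfp1 were compared by RNA sequencing at log phase, with 3 libraries per group, lettered A, B and C. The 6 libraries were chosen by strain and growth phase alone, out of 58 samples in the series. All 6038 genes of the S. paradoxus count table were considered and 4908 of them passed a filter on low counts and were tested. S. paradoxus is a wild yeast and the closest relative of the baker's yeast S. cerevisiae.

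The series asks what the transcription factor Sfp1 does in several yeast species, by setting each SFP1 mutant against the wild type of its species. The cells grew in a culture abbreviated BMW and were taken at an optical density of 0.6 to 0.8, per the labels. Neither group carries a further allele or agent in the labels, which name no strain background or mating type. They leave unsaid if A, B and C grew as separate cultures, so p-values measure the spread between libraries only. Both genotypes were sampled in lag phase too, 30 and 60 min from the return of glucose and again with 3 libraries each, and those values are set beside the log phase ones where they bear on them.

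Sfp1 is a zinc finger protein that, in S. cerevisiae, moves into the nucleus when nutrients are plentiful and activates genes of ribosomal proteins and of the factors that assemble ribosomes. It acts downstream of the TORC1 kinase, which couples nutrient supply to growth, and it is one of several regulators that share these targets. Ribosome production is among the most costly activities of a growing yeast cell, and yeast in glucose ferments and represses respiration at the same time.

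Total counts of the log phase libraries ran from 1480441 to 2252817. In lag phase, deletion replicate A at 30 min had only 34081 counts and the rest between 418292 and 640282. Replicates of one group differed by more than sampling noise, so each library was kept as 1 replicate. Levels are given as CPM, the usual depth-scaled count, on library sizes scaled by TMM, a method that equalises the bulk of genes between libraries. Changes are log2 fold changes of deletion over wild type from edgeR ± an approximate standard error. The latter was derived as the absolute log2 fold change over the square root of the F statistic of edgeR's quasi-likelihood test. It is a rough guide only, above all for genes at 0 counts or with changes near 0. A gene was called higher or lower where its p, adjusted by the Benjamini-Hochberg procedure across the 4908 genes, was below 0.05. An S. paradoxus gene carries the S. cerevisiae name or names of its orthogroup. A gene written CIT1/CIT2 is thus a member of that family that the orthogroup does not assign to one paralog. The number that begins its ID, read below as the chromosome, was not used to choose between paralogs. A function given beside such a name is that of the family and may not hold for the gene itself. Reads of near-identical paralogs may be split between them.

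SFP1 (Spar_12.540) had counts of 1, 0 and 1 in deletion libraries A, B and C. Wild type libraries A, B and C had 233, 268 and 174 counts. The deleted gene was thus at or near 0 in each deletion library and well above it in each wild type library, as the labels say.

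The strains also differed in mating type. A haploid yeast cell is either an a cell or an alpha cell, and each type transcribes its own pheromone, receptor and agglutinin genes. The receptor gene of a cells, STE2 (Spar_6.56), stood at 11.6, 13.5 and 16.3 CPM in deletion libraries A, B and C and at 615, 643 and 604 CPM in wild type A, B and C. The pheromone exporter gene STE6 (Spar_11.21) fell as well (-3.96 ± 0.13), and so did a BAR1/MKC7/YPS1 family gene (Spar_9.174, -4.03 ± 0.17), from the family of the protease that degrades alpha factor. Conversely the receptor gene of alpha cells, STE3 (Spar_11.71), stood at 442, 458 and 519 CPM in the deletion and at 6.22, 3.55 and 7.68 CPM in wild type. The groups lay far apart at each of these genes, in opposite directions for the 2 cell types.

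An alpha factor pheromone gene, MF(ALPHA)1/MF(ALPHA)2 (Spar_16.136), had 1448, 1457 and 1539 CPM in the deletion and 1.38, 1.01 and 0.768 CPM in wild type. The alpha agglutinin gene SAG1 (Spar_10.274, 5.90 ± 0.16) and AFB1 (Spar_12.117, 2.24 ± 0.12), whose product is known from S. cerevisiae as a blocker of a-factor, also rose. HMLALPHA2/HMRA2 (Spar_3.145) and HMLALPHA1/MATALPHA1 (Spar_3.146), genes of the mating type cassettes, had 275, 151 and 278 and 74, 35 and 49 counts in the deletion libraries and 0 counts in each wild type log library. Both tested a-specific genes were lower and all 7 tested alpha-specific genes were higher, while ASG7 (Spar_10.60), the other a-specific gene of the list that was found, did not pass the filter and had 2, 3 and 3 counts in the deletion against 27, 26 and 15 in wild type. The log phase wild type therefore carries the transcripts of a cells and the deletion those of alpha cells. The effects of SFP1, of mating type and of any other difference between the strains cannot be told apart at log phase.

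In lag phase the markers of both strains were of the alpha type. The 2 tested a-specific genes summed to 20.01 to 34.2 CPM in wild type at 60 min and to 30.1 to 39.7 CPM in the deletion, against 1025 to 1056 CPM in wild type at log phase. The 7 alpha-specific genes summed to 1457 to 1481 CPM in wild type at 60 min, against 80.8 to 85.3 CPM in wild type at log phase. Their level still differed between the strains at 60 min, since they summed to 3745 to 4627 CPM in the deletion and 5 of the 7 were called higher there, SAG1 by 2.92 ± 0.14. Changes seen at 60 min are thus changes between strains that both carry alpha type markers, at unequal levels, from libraries that share no sample with the log phase ones. Among the 22 tested genes of the haploid-specific and pheromone response list, which both cell types use, 11 rose and 3 fell at log phase (median 0.23), led by FIG1 (Spar_2.182, 4.55 ± 0.47), of chromosome II, a membrane protein of mating cells. Without chromosome II 9 of 20 rose. PRM7 (Spar_4.241), named for its induction by pheromone, fell at log phase (-3.24 ± 0.19) and at 60 min (-3.04 ± 0.22).

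**Figure D1:**
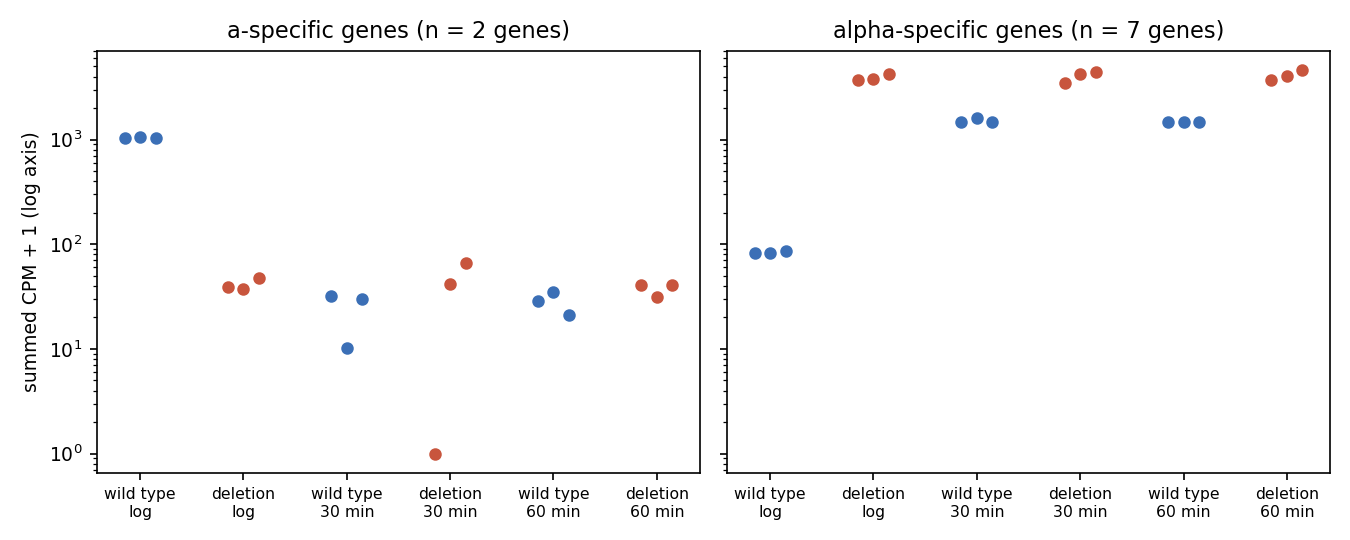
Summed CPM plus 1 (log axis) of the tested a-specific genes (left) and alpha-specific genes (right) in each S. paradoxus library, with 3 points per group, wild type in blue and deletion in red. The log phase wild type is the one group with a-specific genes at 1025 to 1056 CPM and alpha-specific genes at 80.8 to 85.3 CPM.

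Another difference between the strains covered a whole chromosome, and it was noticed after the values were seen. Gene IDs begin with a number that was read as the chromosome: of 228 genes whose ID starts with Spar_2 and that have exactly 1 S. cerevisiae name, 227 have that namesake on S. cerevisiae chromosome II. The 352 tested genes of chromosome II had a median log2 fold change of 0.70, against -0.08 for the 4556 genes of the other chromosomes. Of those 352 genes 264 were higher (75.0%) and 33 lower (9.38%), where 20.9% and 34.4% of the other genes were. The medians of the other 15 chromosomes lay between -0.21 and 0.01.

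The shift ran along the whole chromosome, with medians of 0.30 to 0.85 in 10 successive blocks of 35 or 36 tested genes. Relative to the other chromosomes, the median level of chromosome II genes was higher by 0.85, 0.79 and 0.74 on the log2 scale in deletion libraries A, B and C than the wild type log mean, and in wild type A, B and C it stood at -0.00, -0.01 and 0.01. Genes of chromosome II took 12.2%, 11.4% and 11.1% of all counts in the 3 deletion libraries and 6.79%, 6.68% and 6.46% in the 3 wild type libraries. The offset was 0.47 to 0.59 in the 6 lag phase deletion libraries and -0.08 to 0.02 in the 6 lag phase wild type libraries. In deletion replicate A at 30 min, the shallow library, another chromosome reached 0.48, so chromosome II did not stand apart there. In the other deletion libraries it did, in both phases.

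Chromosome II members sat above the rest of their own pathway in most gene lists: in 43 of the 46 lists that have tested genes both there and elsewhere, the median of the former was higher, and the median gap over the 46 lists was 0.75. Chromosome II supplied 264 of all 1216 genes called higher (21.7%) and 33 of the 1601 called lower (2.06%), while it holds 7.17% of the genes tested. The libraries measure RNA only, and the part of this shift in the results that follow was not tested. Counts for gene lists are therefore also given without chromosome II wherever that changes them by 3 or more genes, and named genes of that chromosome are marked.

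**Figure D2:**
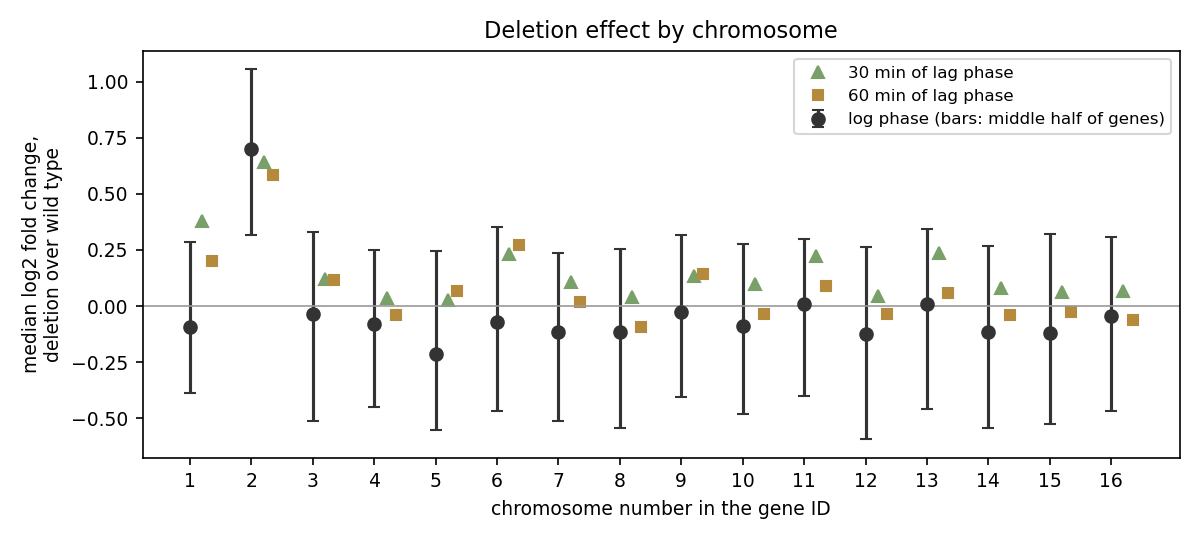
Median log2 fold change of deletion over wild type (vertical axis) for the tested genes of each chromosome (horizontal axis), at log phase (circles, with bars for the interquartile range) and at 30 (triangles) and 60 min (squares) of lag phase. Chromosome 2 stands at 0.70 at log phase, 0.64 at 30 min and 0.59 at 60 min, above each other chromosome.

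Over all 4908 genes, 1216 were higher (24.8%) and 1601 lower (32.6%), 57.4% in all, and in 62.8% the 3 deletion libraries did not overlap the 3 wild type libraries. With a fold change of at least 2 as well, 338 were higher (6.89%) and 478 lower (9.74%). Counts of list members below are to be read against these shares, and list medians against the median of all genes, -0.05. That median depends on the scaling: library size alone in place of TMM raised it by 0.50 and gave 2885 higher and 676 lower, and leaving out the filter on low counts raised it by 0.13 and gave 1681 and 1337. Directions of lists and genes below are those under TMM, and with library size alone the negative medians of 18 of the 60 lists turned positive. These are the lists of fermentation, hexose transport, glucose repression, protein import, proteasome, tRNA modification, ergosterol, fatty acids, phosphate, purines, pyrimidines, lysine, sulfur, one-carbon and arginine metabolism, flocculins, cyclins and DNA replication, while no ribosomal, assembly, respiratory or glycolytic list changed sign. The lists of polymerase III, aromatic and histidine genes, ribosomal gene regulators, TORC1 and meiosis kept the sign of their median but had more genes higher than lower with library size alone.

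The genes of the cytosolic ribosome fell almost without exception. All 36 tested genes of the small subunit were lower, with a median of -1.18, and 53 of 54 genes of the large subunit, with the same median of -1.18. RPL15A/RPL15B (Spar_13.303), a core protein of the large subunit, stood at 70.4, 79.7 and 70.7 CPM in the deletion and at 338, 331 and 319.5 CPM in wild type. RPS22A/RPS22B (Spar_10.43), of the small subunit, stood at 350.2, 403 and 373 CPM in the deletion and at 1192, 1231 and 1149.8 CPM in wild type. For both genes each deletion library lay below each wild type library, with changes of -2.17 ± 0.11 and -1.67 ± 0.08 (adjusted p = 3.2e-17 and 8.6e-18).

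RPL3 (Spar_15.263, -1.36 ± 0.09), of the peptidyl transferase centre, RPS3 (Spar_14.161, -1.05 ± 0.09), at the mRNA entry, and RPP0 (Spar_12.470, -0.96 ± 0.09), of the ribosomal stalk, fell by less than RPL15A/RPL15B, and RPL12A/RPL12B (Spar_5.21, -1.82 ± 0.09), which sits beside the stalk, by an amount in between. The range over both lists went from -2.17 to -0.19. The 4 ribosomal protein genes of chromosome II lay at the upper end of it, as the plot of list members shows: 3 of them were still called lower. Ribosomal protein genes together took 7.56%, 7.70% and 7.66% of all counts in the deletion and 11.9%, 11.9% and 11.2% in wild type, means of 7.64 ± 0.0756% and 11.7 ± 0.418% (SD, n = 3). The groups do not overlap, and the two-sided exact permutation test gave p = 0.1, the smallest that 3 against 3 libraries allow.

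The factors that build ribosomes fell as broadly. Of 63 tested genes for small subunit assembly 59 were lower and 0 higher (median -0.89), and of 70 for large subunit assembly 63 were lower and 0 higher (median -0.85). NOG2 (Spar_14.417), a GTPase of late large subunit assembly, stood at 67.9, 64.0 and 71.2 CPM in the deletion and at 271, 231 and 267 CPM in wild type. UTP6 (Spar_4.818), a component of the small subunit processome, stood at 40.6, 34.8 and 30.0 CPM in the deletion and at 104, 99.3 and 85.3 CPM in wild type. The groups were apart at both, with changes of -1.91 ± 0.10 and -1.45 ± 0.13.

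ARB1 (Spar_5.172, -1.79 ± 0.09), an ATPase of ribosome assembly, UTP5/UTP9 (Spar_8.304, -1.503 ± 0.11), early binders of the pre-rRNA, and PNO1 (Spar_15.339, -1.35 ± 0.10), of late small subunit steps, were among the other leading falls. Of 29 genes of the small nucleolar particles and of rRNA processing, 20 fell and 2 rose (median -0.61). SNU13 (Spar_5.56, -1.85 ± 0.11) and NOP1 (Spar_4.264, -1.62 ± 0.10), both of the particles that methylate rRNA, and the nucleolar proteins NSR1 (Spar_7.497, -1.70 ± 0.11) and SRP40 (Spar_11.384, -1.67 ± 0.09) led this list. With library size alone the assembly lists kept negative medians of -0.39 and -0.36, with 42 and 39 genes lower and 3 and 7 higher. The list of small nucleolar particles and rRNA processing then had a median of only -0.11, with 11 genes lower and 8 higher.

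RNA polymerase I makes the large rRNA and RNA polymerase III the transfer RNAs. RPA190 (Spar_15.553), the largest subunit of polymerase I, stood at 356, 312 and 354 CPM in the deletion and at 1057, 901 and 1163 CPM in wild type, a change of -1.61 ± 0.10 with no overlap. Of 13 polymerase I genes 9 fell and 2 rose (median -0.93), the 2 risen genes being on chromosome II. RRN3 (Spar_11.133, -1.30 ± 0.12), which recruits polymerase I to its promoter, also fell. Among 18 polymerase III genes 9 fell and 4 rose (median -0.53), with RPC34 (Spar_14.368, -1.23 ± 0.15) in the lead, but with library size alone 8 were higher and 5 lower (median -0.04). Of 7 subunits shared by both enzymes 6 fell and 0 rose (median -1.05). RPC40 (Spar_16.464, -1.29 ± 0.10) is one of these, and RPB5 (Spar_2.314, -1.05 ± 0.15) is another that fell although it lies on chromosome II.

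In S. cerevisiae the promoters of assembly factors are known for 2 short elements, PAC and RRPE. The letters GATGAG (PAC) and AAAATTT (RRPE), with ACCCATACA as a core of the Rap1 site of ribosomal protein genes, were searched on both strands in the 300 bases before the start codon of S. cerevisiae genes, RefSeq build R64, since the promoters of S. paradoxus itself were not used here. These motifs and the comparison were chosen with results of these data known. RRPE is nearly its own reverse complement, so one stretch can match on both strands, while PAC and RRPE cannot share a base. Shown are 3 promoters, those of the gene with the largest fall in each assembly list and among the tRNA synthetases whose printed stretch holds the elements (both, or RRPE for the synthetase). They run from 240 to 81 bases before the start codon, 5′ to 3′ on the coding strand, with PAC and RRPE in capitals.
UTP6, chrIV:1358983-1359142, minus strand: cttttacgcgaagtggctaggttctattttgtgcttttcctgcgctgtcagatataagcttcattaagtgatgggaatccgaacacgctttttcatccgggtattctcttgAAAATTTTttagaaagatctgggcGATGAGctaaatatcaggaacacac
NOG2, chrXIV:723193-723352, minus strand: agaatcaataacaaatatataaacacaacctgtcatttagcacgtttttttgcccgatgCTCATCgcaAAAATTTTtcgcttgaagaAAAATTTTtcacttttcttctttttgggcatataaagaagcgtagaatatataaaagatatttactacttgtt
DED81, chrVIII:143639-143798, minus strand: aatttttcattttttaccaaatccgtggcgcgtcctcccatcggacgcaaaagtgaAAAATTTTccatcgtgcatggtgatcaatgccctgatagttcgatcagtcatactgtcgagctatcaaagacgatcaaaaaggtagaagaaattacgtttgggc
In UTP6 the RRPE lies 129 to 122 and the PAC 105 to 100 bases before the start codon. In NOG2 the PAC is on the other strand, at 181 to 176, followed by RRPE copies at 172 to 165 and 153 to 146. DED81 (Spar_8.86, -1.61 ± 0.09), the asparagine enzyme, has an RRPE at 184 to 177 and no PAC in the window searched.

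Both elements were present upstream of 50 of 59 small subunit assembly genes (84.7%) and 54 of 64 large subunit assembly genes (84.4%) that have exactly 1 counterpart in each species. Among all 3094 such tested genes the share was 10.5%, and among all 6001 S. cerevisiae genes searched it was 7.53%. Genes with both elements had a median log2 fold change of -0.63 and 71.4% of the 325 were lower. With RRPE alone the median was -0.23 and 44.0% of 545 were lower, with PAC alone -0.01 and 22.6% of 336, and with neither 0.05 and 22.7% of 1888. Leaving out the assembly lists, 60.6% of the remaining 221 genes with both elements were lower (median -0.47).

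Of 17 tRNA synthetase genes 15 had an RRPE (88.2%) but only 3 a PAC (17.6%), against 28.1% and 21.4% of all 3094 genes. Among genes lower by at least 2-fold 73.9% of 226 had an RRPE, and among genes higher by at least 2-fold 12.4% of 170. The Rap1 core was found in 0.614% of the 3094 genes and in 0 of the 16 ribosomal protein genes that could be matched 1 to 1, since most ribosomal protein genes have a paralog. Windows of neighbouring genes can overlap, the letters were read from another species, and a match is not evidence of binding.

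**Figure D3:**
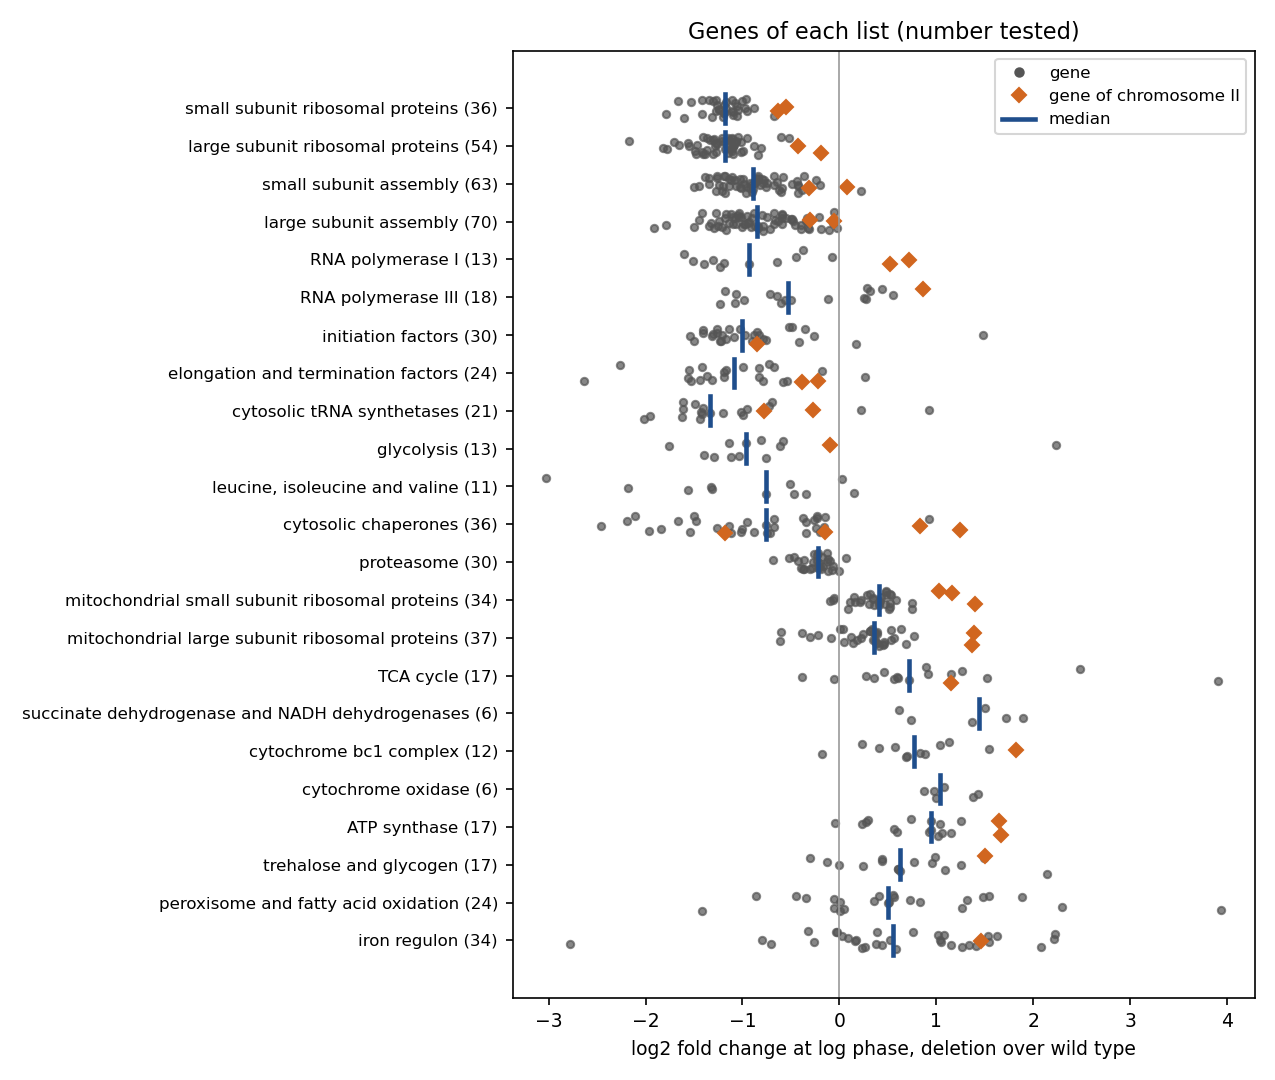
Log2 fold change at log phase (horizontal axis) of each tested gene in 23 gene lists (rows, with the number tested), chromosome II genes as orange diamonds and the list median as a blue bar. Medians of the cytosolic ribosomal and translation lists lie left of 0. Those of the respiratory and mitochondrial ribosomal lists lie right of it, and the diamonds lie right of the median in most lists.

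Translation beyond the ribosome followed the same direction. Of 30 initiation factor genes 27 fell and 1 rose (median -0.999), of 24 for elongation and termination 21 fell and 0 rose (median -1.08), and of 21 cytosolic tRNA synthetases 19 fell and 1 rose (median -1.33). WRS1 (Spar_15.79), which charges the tryptophan tRNA, stood at 71.1, 87.0 and 81.5 CPM in the deletion and at 330.2, 321 and 309.5 CPM in wild type. SSB1/SSB2 (Spar_4.37), an HSP70 chaperone that sits on the ribosome, stood at 860.4, 858 and 842 CPM in the deletion and at 5496, 5146 and 5299 CPM in wild type. Each deletion library was far below each wild type library at both genes, with changes of -2.01 ± 0.09 and -2.64 ± 0.11 (adjusted p = 7.0e-19 and 5.7e-20).

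EFB1 (Spar_1.74, -2.27 ± 0.10), a nucleotide exchange factor of elongation, HEF3/NEW1/YEF3 (Spar_12.363, -1.56 ± 0.09), of the elongation factor 3 family, TIF4631/TIF4632 (Spar_7.504, -1.54 ± 0.09), the eIF4G scaffold, PRT1 (Spar_15.580, -1.502 ± 0.10), a subunit of eIF3, and CDC60 (Spar_16.167, -1.63 ± 0.09), the leucine enzyme, were further leading falls. The elongation factor gene TEF1/TEF2 (Spar_16.436, -0.54 ± 0.11) fell much less, and was not called with library size alone. The single gene of the initiation factor list that rose was a DBP1/DED1 helicase gene (Spar_16.206, 1.49 ± 0.30), not assigned to either name. It went from 5.07 to 11.1 CPM in wild type to 17.4 to 24.9 CPM in the deletion. Genes of tRNA modification fell in 12 of 25 cases and rose in 0, with a median of -0.28 that turned positive with library size alone.

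Among known regulators of ribosomal genes, the list that holds SFP1 itself, 5 of 19 were lower and 2 higher (median 0.06). MRS6 (Spar_15.589), known from S. cerevisiae as a cytoplasmic partner of Sfp1, stood at 82.6, 87.6 and 81.03 CPM in the deletion and at 206, 209 and 185 CPM in wild type, without overlap (-1.26 ± 0.10). SCH9 (Spar_8.314, -0.65 ± 0.09), the kinase that TORC1 phosphorylates, fell too (not called with library size alone), in a list of TORC1 and Sch9 genes with 5 higher and 6 lower of 19. Both higher regulator genes, among them SPT7 (Spar_2.236, 1.08 ± 0.13), lie on chromosome II.

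Most glycolysis genes fell. Of 13 glycolysis genes 11 were lower and 1 higher (median -0.96). A gene of the alcohol dehydrogenase family, ADH1/ADH2/ADH3 (Spar_15.91), is not in this list but in that of fermentation and acetate. It stood at 2976, 3641 and 3255 CPM in the deletion and at 13832, 14862 and 12990.0 CPM in wild type. TDH1/TDH2/TDH3 (Spar_10.280), a glyceraldehyde phosphate dehydrogenase gene, stood at 2821, 2951 and 2818 CPM in the deletion and at 9242, 11022 and 8716 CPM in wild type. Both fell without overlap (-2.08 ± 0.10 and -1.75 ± 0.10), and in both wild type replicate B was the highest library.

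PGK1 (Spar_3.98, -1.40 ± 0.10), phosphoglycerate kinase, and another gene of the TDH family (Spar_7.549, -1.30 ± 0.10) fell as well. The glycolysis genes took 4.99%, 5.05% and 4.89% of all counts in the deletion and 7.90%, 8.61% and 7.33% in wild type. The exception was a gene of the pyruvate kinase family, CDC19/PYK2 (Spar_15.566). It had 84.7, 91.0 and 83.6 CPM in the deletion and 17.3, 24.3 and 10.8 CPM in wild type (2.23 ± 0.19). The gene was not assigned to either name, so its rise is not shown to be that of CDC19. In the fermentation and acetate list 11 of 24 fell and 5 rose (median -0.29), against 5 lower and 10 higher with library size alone (median 0.21). Among the genes that fell were GPP1/GPP2 (Spar_9.128, -2.10 ± 0.11), of glycerol synthesis, and ALD4/ALD5/ALD6 (Spar_5.223, -2.75 ± 0.16), an aldehyde dehydrogenase gene. Another gene of the alcohol dehydrogenase family, on chromosome II (Spar_2.7, 2.97 ± 0.21), went the other way.

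Hexose transporters and hexokinases had no common direction, with 5 higher and 7 lower of 23 (median -0.04). A hexose transporter family gene (Spar_8.176) stood at 5.95, 6.74 and 8.57 CPM in the deletion and at 60.8, 62.3 and 104 CPM in wild type (-3.38 ± 0.25). HXK1/HXK2 (Spar_7.15), a hexokinase gene, fell (-1.16 ± 0.08). Of the 29 glucose repression and respiratory regulators 11 were higher and 7 lower.

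Genes of respiration rose in each complex of the electron transport chain. All 6 tested genes of succinate dehydrogenase and the NADH dehydrogenases were higher (median 1.44), as were 11 of 12 of the cytochrome bc1 list (median 0.77), all 6 of cytochrome oxidase (median 1.04) and 13 of 17 of the ATP synthase (median 0.94), with 0 lower in the 4 lists. Without chromosome II the last count was 11 of 15, with a median of 0.92. SDH2 (Spar_12.25), the iron-sulfur subunit of succinate dehydrogenase, stood at 140.1, 159 and 156 CPM in the deletion and at 39.4, 39.5 and 43.0 CPM in wild type. COX4 (Spar_7.91), a subunit of cytochrome oxidase, stood at 244, 281 and 248 CPM in the deletion and at 106, 91.2 and 101 CPM in wild type. Every deletion library was above every wild type library at both genes, by 1.90 ± 0.12 and 1.38 ± 0.10.

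RIP1 (Spar_5.58, 1.14 ± 0.09) and CYT1 (Spar_15.265, 1.04 ± 0.10), subunits of the bc1 complex, and ATP14 (Spar_12.415, 1.26 ± 0.11), of the ATP synthase, rose as well. The largest rises of the bc1 and ATP synthase lists were on chromosome II, COR1/MAS1 (Spar_2.78, 1.82 ± 0.10) and ATP3 (Spar_2.181, 1.67 ± 0.09). HAP4 (Spar_11.148), which activates respiratory genes, stood at 238, 244 and 257 CPM in the deletion and at 124, 120.1 and 118 CPM in wild type (1.03 ± 0.09). Its partner HAP3 (Spar_2.100, 1.15 ± 0.22), on chromosome II, rose too.

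The TCA cycle rose in 14 of 17 genes and fell in 1 (median 0.72). A citrate synthase gene, CIT1/CIT2 (Spar_14.363), stood at 829, 806 and 787 CPM in the deletion and at 143, 133 and 158 CPM in wild type. The other CIT1/CIT2 gene (Spar_3.84) stood at 290.3, 244 and 226 CPM in the deletion and at 18.7, 19.3 and 11.5 CPM in wild type. These are rises of 2.49 ± 0.10 and 3.90 ± 0.17 with no overlap, and FUM1 (Spar_16.50, 1.53 ± 0.09), fumarase, and IDH2 (Spar_15.326, 1.26 ± 0.10), of isocitrate dehydrogenase, moved the same way.

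Mitochondrial ribosomal proteins, which translate the few proteins encoded in mitochondria, moved against their cytosolic counterparts. Of 34 small subunit genes 20 rose and 0 fell (median 0.41), and of 37 large subunit genes 20 rose and 3 fell (median 0.36). RSM7 (Spar_10.398) stood at 113, 122 and 122 CPM in the deletion and at 72.5, 70.4 and 68.4 CPM in wild type (0.75 ± 0.13). MRPL10 (Spar_14.59, 0.68 ± 0.13) rose as well, while the largest changes were those of chromosome II genes such as MRP21 (Spar_2.34, 1.40 ± 0.16). Without chromosome II 17 of 31 and 18 of 35 were higher. Protein import into mitochondria rose in 3 of 28 genes and fell in 6, and cytochrome oxidase assembly rose in 9 of 20 and fell in 3.

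**Figure D4:**
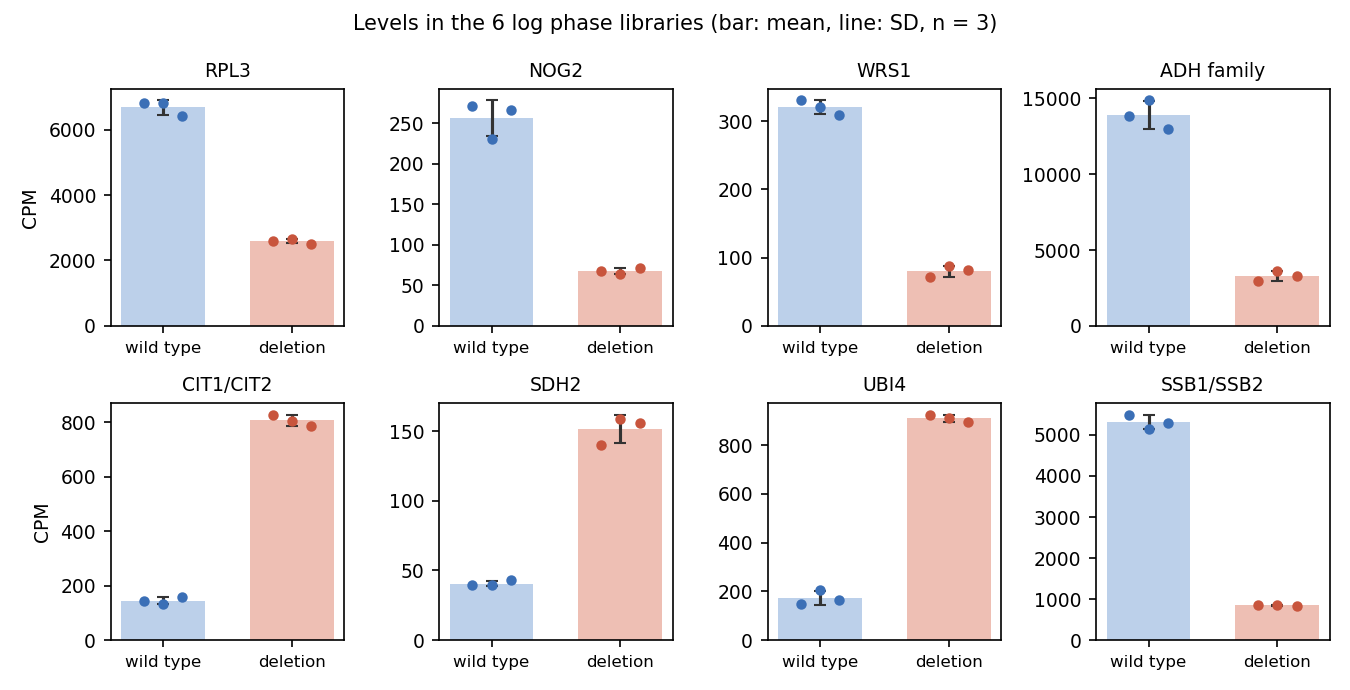
CPM of 8 genes in the 3 wild type (blue) and 3 deletion (red) log phase libraries, with bars for means and lines for SD (n = 3). RPL3, NOG2, WRS1, the ADH family gene Spar_15.91 and SSB1/SSB2 are lower in each deletion library, and CIT1/CIT2 (Spar_14.363), SDH2 and UBI4 higher.

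Carbon use beyond glucose also shifted. In the glyoxylate and gluconeogenesis list 12 of 20 genes rose and 2 fell (median 0.39). DAL7/MLS1 (Spar_14.221), a malate synthase gene, stood at 35.0, 25.8 and 36.4 CPM in the deletion and at 3.45, 2.53 and 3.07 CPM in wild type (3.41 ± 0.32). ACH1 (Spar_2.107, 2.60 ± 0.14), a CoA transferase of chromosome II, and MDH2/MDH3 (Spar_15.44, 1.94 ± 0.20), a malate dehydrogenase gene, rose, while MAE1 (Spar_11.247), the malic enzyme, fell (-2.48 ± 0.10). Peroxisome and fatty acid oxidation genes rose in 13 of 24 cases and fell in 3 (median 0.50), led by POX1 (Spar_7.61), the acyl-CoA oxidase, with 42.4, 45.5 and 44.6 CPM in the deletion and 1.38, 3.04 and 3.84 CPM in wild type (3.94 ± 0.29). EEB1/EHT1/MGL2 (Spar_16.233), a family that makes fatty acid esters, was among the largest rises of all genes, with 373, 359 and 329.7 CPM in the deletion and 17.3, 13.7 and 16.9 CPM in wild type (4.48 ± 0.14).

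Of 17 trehalose and glycogen genes 12 were higher and 1 lower (median 0.63). GSY1/GSY2 (Spar_12.373), a glycogen synthase gene, stood at 76.3, 73.6 and 62.2 CPM in the deletion and at 17.3, 14.7 and 16.1 CPM in wild type (2.14 ± 0.20). Of the TPS1/TPS3/TSL1 family of trehalose synthesis, the genes Spar_13.42 (1.49 ± 0.11) and Spar_13.454 (0.60 ± 0.11) rose, and Spar_2.283 (1.499 ± 0.10), of chromosome II, did too.

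Amino acid pathways split by pathway. For leucine, isoleucine and valine 9 of 11 genes fell and 0 rose (median -0.76). LEU4/LEU9 (Spar_15.313), a gene of the first step of leucine synthesis, stood at 31.5, 29.8 and 30.9 CPM in the deletion and at 298, 212 and 248 CPM in wild type. Its family member Spar_14.232 fell by much less (-0.47 ± 0.10, 0.03 with library size alone). ILV2 (Spar_13.288), the first common enzyme of the branched chain, stood at 142, 153 and 145 CPM in the deletion and at 656, 717 and 613 CPM in wild type. The changes of Spar_15.313 and ILV2 were -3.02 ± 0.12 and -2.18 ± 0.10, without overlap, and ILV5 (Spar_12.493, -1.57 ± 0.10), of the next step, fell with them.

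The 3 genes GCV1 (Spar_4.301, 2.90 ± 0.14), GCV2 (Spar_13.384, 2.19 ± 0.13) and GCV3 (Spar_1.23, 2.09 ± 0.13) of the glycine cleavage system rose together. GCV1 stood at 123, 129 and 116 CPM in the deletion and at 15.9, 19.3 and 12.3 CPM in wild type. In the same list of serine, glycine, threonine and one-carbon genes 6 of 21 rose and 10 fell, the leading fall being HOM2 (Spar_4.465, -2.05 ± 0.10), of threonine and methionine synthesis. PUT2 (Spar_8.111, 2.04 ± 0.11), of proline breakdown, and PRO1/YHR033W (Spar_8.107, 2.52 ± 0.23), a family named for proline synthesis, rose in a list of 24 arginine, glutamate and proline genes with 7 higher and 10 lower.

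Aromatic and histidine genes fell in 11 of 20 cases and rose in 5 (median -0.59), against 6 lower and 8 higher with library size alone (median -0.09). ARO3/ARO4 (Spar_2.426), of the first step of aromatic synthesis, fell (-1.78 ± 0.09) although it lies on chromosome II, and ARO10 (Spar_4.578, 2.23 ± 0.15) and ARO8/ARO9 (Spar_8.229, 1.77 ± 0.14), of aromatic breakdown, rose. In both breakdown genes wild type replicate B was the highest wild type library, with 200.1 against 103 to 107 CPM at ARO10. Sulfur and methionine genes fell in 10 of 25 cases and rose in 5, with MET6 (Spar_5.255, -2.13 ± 0.17), methionine synthase, in the lead and again with wild type B apart, at 314 CPM against 164 and 175. GCN4 (Spar_5.97), the activator of amino acid synthesis, did not pass (-0.13 ± 0.09, adjusted p = 0.247) but was called higher with library size alone (0.37). Lysine genes were lower in 3 of 9 cases and higher in 1.

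Nucleotide genes fell more often than they rose. Pyrimidine genes were lower in 6 of 10 cases and higher in 1 (median -0.45, 0.05 with library size alone), and purine genes lower in 11 of 23 and higher in 4 (median -0.31, positive with library size alone). FUR1 (Spar_8.218), which salvages uracil, stood at 43.1, 52.8 and 62.6 CPM in the deletion and at 359, 324 and 343 CPM in wild type (-2.70 ± 0.12). HPT1/XPT1 (Spar_4.754, -1.84 ± 0.12), of purine salvage, fell too. Of the genes often used as auxotrophic markers, URA3 (Spar_5.61, -1.198 ± 0.12) fell and TRP1 (Spar_4.289, 0.72 ± 0.16), ADE2 (Spar_4.730, 1.005 ± 0.11) and LYS2 (Spar_2.274, 0.35 ± 0.13), of chromosome II, rose. At LYS2 the groups overlapped and the call was lost without deletion A (0.25), wild type A (0.26) or wild type C (0.23). Counts of the 4 genes were above 0 in every log phase library. The list has 5 genes in the count table, and only these 4 passed the filter on low counts.

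Chaperones fell. Of 36 cytosolic chaperone genes 26 were lower and 3 higher (median -0.75), and of 12 mitochondrial and ER chaperone genes 10 were lower and 1 higher (median -0.68). HSC82/HSP82 (Spar_16.84), an HSP90 gene, stood at 676, 604 and 571 CPM in the deletion and at 2688, 4744 and 2724 CPM in wild type. Wild type replicate B was the highest and the groups did not overlap (-2.46 ± 0.14). An HSP70 family gene (Spar_16.222, -2.19 ± 0.09), the disaggregase gene HSP104 (Spar_12.42, -1.001 ± 0.11) and the ER oxidoreductase genes EUG1/PDI1 (Spar_4.890, -2.46 ± 0.16) and ERO1 (Spar_13.11, -1.07 ± 0.11) fell, as did HAC1 (Spar_6.51, -0.54 ± 0.10, not called with library size alone), the activator of the unfolded protein response. Proteasome genes were lower in 17 of 30 cases (median -0.22), a small shift that turned to 0.27 with 20 higher under library size alone, and RLE factors left 9 lower.

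Of 30 general stress genes 9 rose and 7 fell (median 0.25), against 22 higher and 6 lower with library size alone (median 0.74). UBI4 (Spar_12.28), the polyubiquitin gene, stood at 926, 911 and 894 CPM in the deletion and at 149, 204 and 164 CPM in wild type (2.39 ± 0.10). DDR48 (Spar_13.366), induced by DNA damage and heat in S. cerevisiae, stood at 29.8, 38.7 and 38.2 CPM in the deletion and at 183, 247 and 241 CPM in wild type (-2.67 ± 0.15), and PHM7/RSN1 (Spar_13.459, -2.80 ± 0.11) fell too. HSP12 (Spar_6.76, 0.57 ± 0.45, adjusted p = 0.281) did not pass, and was called higher without wild type B (1.65) and with library size alone (1.07). Oxidative stress genes rose in 14 of 26 cases and fell in 4 (median 0.33), led by OYE2/OYE3 (Spar_16.156, 3.53 ± 0.17), an NADPH oxidoreductase gene, and PRX1 (Spar_2.59, 2.31 ± 0.11), a mitochondrial peroxiredoxin of chromosome II.

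Metal uptake rose on the whole. Of 34 iron regulon genes 20 were higher and 4 lower (median 0.56), and of 13 zinc and copper genes 8 and 2. A ferric reductase family gene, AIM14/FRE1/FRE2 (Spar_12.322), stood at 415, 355 and 421 CPM in the deletion and at 73.9, 85.1 and 99.1 CPM in wild type (2.21 ± 0.11). Another gene of that family (Spar_14.431) fell, from 54.6, 55.7 and 121 CPM in wild type to 14.0, 6.18 and 10.7 CPM in the deletion (-2.77 ± 0.26). A siderophore transporter gene, ARN1/ARN2/ENB1 (Spar_5.9, 2.08 ± 0.17), CCC2 (Spar_4.645, 1.63 ± 0.13), which loads copper onto the iron oxidase, and CTR3 (Spar_12.550, 1.07 ± 0.22), a copper transporter, rose. Phosphate genes were higher in 4 and lower in 7 of 21.

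Among the largest falls of all were 3 genes with neighbouring IDs, 1 of them from a cell surface family. A flocculin family gene, BSC1/DAN4/FLO1 (Spar_9.220), stood at 10.2, 15.7 and 12.9 CPM in the deletion and at 735, 463 and 724 CPM in wild type. Spar_9.223, which has no S. cerevisiae name, stood at 9.80, 6.18 and 6.43 CPM in the deletion and at 484, 332 and 706 CPM in wild type. Spar_9.221, also without a name, fell with them, and the 3 changes were -5.65 ± 0.19, -6.00 ± 0.25 and -5.28 ± 0.22, with no overlap between groups.

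Of the other flocculin family genes Spar_4.244 (-1.47 ± 0.18) fell, while FLO8 (Spar_5.281, -0.03 ± 0.13, adjusted p = 0.87), a regulator of the family, did not pass but was called higher with library size alone (0.47). Small falls of Spar_13.519 (-0.39 ± 0.15, overlapping groups) and Spar_4.788 (-0.32 ± 0.13) turned to 0.11 and 0.18 with library size alone and were not called under most other settings. Spar_10.436 rose (0.87 ± 0.31) and was not called without deletion B (0.77) or wild type B (0.52). Of 41 cell wall genes 18 rose and 7 fell (median 0.28), among them CTS1/CTS2 (Spar_12.405, 1.86 ± 0.12), a chitinase gene of cell separation, and a gene of the NCA3/SIM1/SUN4/UTH1 family (Spar_10.123, 2.40 ± 0.23). Without chromosome II 13 of 36 rose. Spar_4.779, again with no name, fell from 1896, 1931 and 2019 CPM in wild type to 41.7, 64.6 and 54.0 CPM in the deletion (-5.21 ± 0.13), and the unnamed Spar_3.219 rose from 16.6, 27.9 and 23.0 to 591, 562 and 545 CPM (4.62 ± 0.17).

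Growth and division lists had medians near 0 that moved with the scaling. In the list of cyclins and G1/S genes 9 of 27 fell and 2 rose (median -0.06), against 2 lower and 17 higher with library size alone. It was led by SRL3/WHI5 (Spar_11.383, -1.96 ± 0.13). This gene was not assigned to either name, so its fall is not shown to be that of the G1 repressor gene WHI5. CLN3 (Spar_1.27, -0.50 ± 0.10), the first G1 cyclin, was also lower but at 0.00 with library size alone. DNA replication genes were higher in 7 and lower in 9 of 34 (4 and 9 of 29 without chromosome II, and 21 and 2 of 34 with library size alone). Histone genes higher in 2 and lower in 2 of 7, and meiosis genes lower in 1 of 8. Autophagy genes rose in 10 of 18 cases and fell in 3 (median 0.51). Ergosterol genes fell in 14 of 27 cases and rose in 3 (median -0.21, positive with library size alone), fatty acid and phospholipid genes fell in 8 of 19 and rose in 4, and amino acid and nitrogen transporters rose in 8 of 25 and fell in 7 (5 and 7 of 22 without chromosome II).

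The lag phase libraries show which of these differences also separate deletion from wild type when both carry alpha type markers. The labels name no strain background, so it is not known whether the wild type was the same strain in both phases. At 60 min 1263 genes were higher (25.7%) and 1229 lower (25.0%), 50.8% in all. At 30 min 1389 were higher (28.3%) and 1207 lower (24.6%), 52.9% in all. Across the 4908 genes the log phase effect correlated with the effect at 60 min at a Pearson r of 0.63 and with that at 30 min at 0.60, or 0.61 and 0.59 without chromosome II. The compared effects share no library, but genes are not independent replicates. Of 459 genes lower by at least 2-fold at log phase, with an average log2 CPM of at least 4 and no overlap, 385 were called lower at 60 min and 17 higher. Of 303 such genes higher at log phase, 206 were called higher at 60 min and 7 lower. These counts include chromosome II, whose median was 0.70 at log phase and 0.59 at 60 min. It holds 103 of all 338 genes called higher by at least 2-fold at log phase (30.5%), and its part in the 206 was not tested.

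Cytosolic ribosomal lists kept their direction through the 3 sampling points. At 60 min all 36 small subunit and all 54 large subunit ribosomal protein genes were lower (medians -1.37 and -1.32), and at 30 min 29 and 47 were (medians -0.66 and -0.68). Assembly lists were lowest at 30 min, with medians of -1.41 and -1.24, and stood at -0.86 and -0.75 at 60 min. The tRNA synthetases had medians of -2.04 and -1.63 at 30 and 60 min, and 19 of 21 were lower at each.

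The lists of the respiratory complexes and of glycolysis did not move in parallel with log phase. Cytochrome oxidase had medians of 2.07 at 30 min and 0.24 at 60 min, and the ATP synthase 0.91 and -0.13. The bc1 list had 2.04 and 0.43, and succinate dehydrogenase and the NADH dehydrogenases 1.54 and 0.22. The TCA cycle stayed near its log phase median, at 0.80 and 0.81, with 11 of 17 genes higher at each time. Its single genes were not as steady as that median. The log phase effect was above the 60 min effect in 5 of the 17 and below it in 6. Glycolysis had medians of 0.07 and -0.21, with 3 higher and 3 lower at 30 min and 2 and 4 at 60 min. Both mitochondrial ribosomal lists were near or below 0 at both times, with medians of -0.11 and -0.24 for the small subunit and -0.02 and -0.25 for the large one.

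Whether the log phase effect differs from that at 60 min was tested gene by gene in the same fit. The wild type had a cell markers at log phase and alpha type markers at 60 min. Growth phase, the mating type of the wild type and any other difference between the wild type strains therefore cannot be told apart in this difference. The effect at log phase was above that at 60 min in 447 genes (9.11%) and below it in 792 (16.1%), 25.2% in all. This split depends on the scaling, with 640 and 610 under RLE factors and 847 and 494 under library size alone. Without the filter, which adds genes, it was 715 and 564, and with DESeq2, which is another model and test, 506 and 501. The log phase effect was above the 60 min effect in 12 of 17 ATP synthase genes, 5 of 6 cytochrome oxidase genes, 12 of 34 and 16 of 37 mitochondrial ribosomal protein genes and all 7 alpha-specific genes, and below it in 9 of 13 glycolysis genes and 13 of 30 proteasome genes. For ribosomal proteins it was above in 20 of 90 and below in 1, for small subunit assembly above in 1 of 63 and below in 2, and for large subunit assembly above in 5 of 70 and below in 7.

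**Figure D5:**
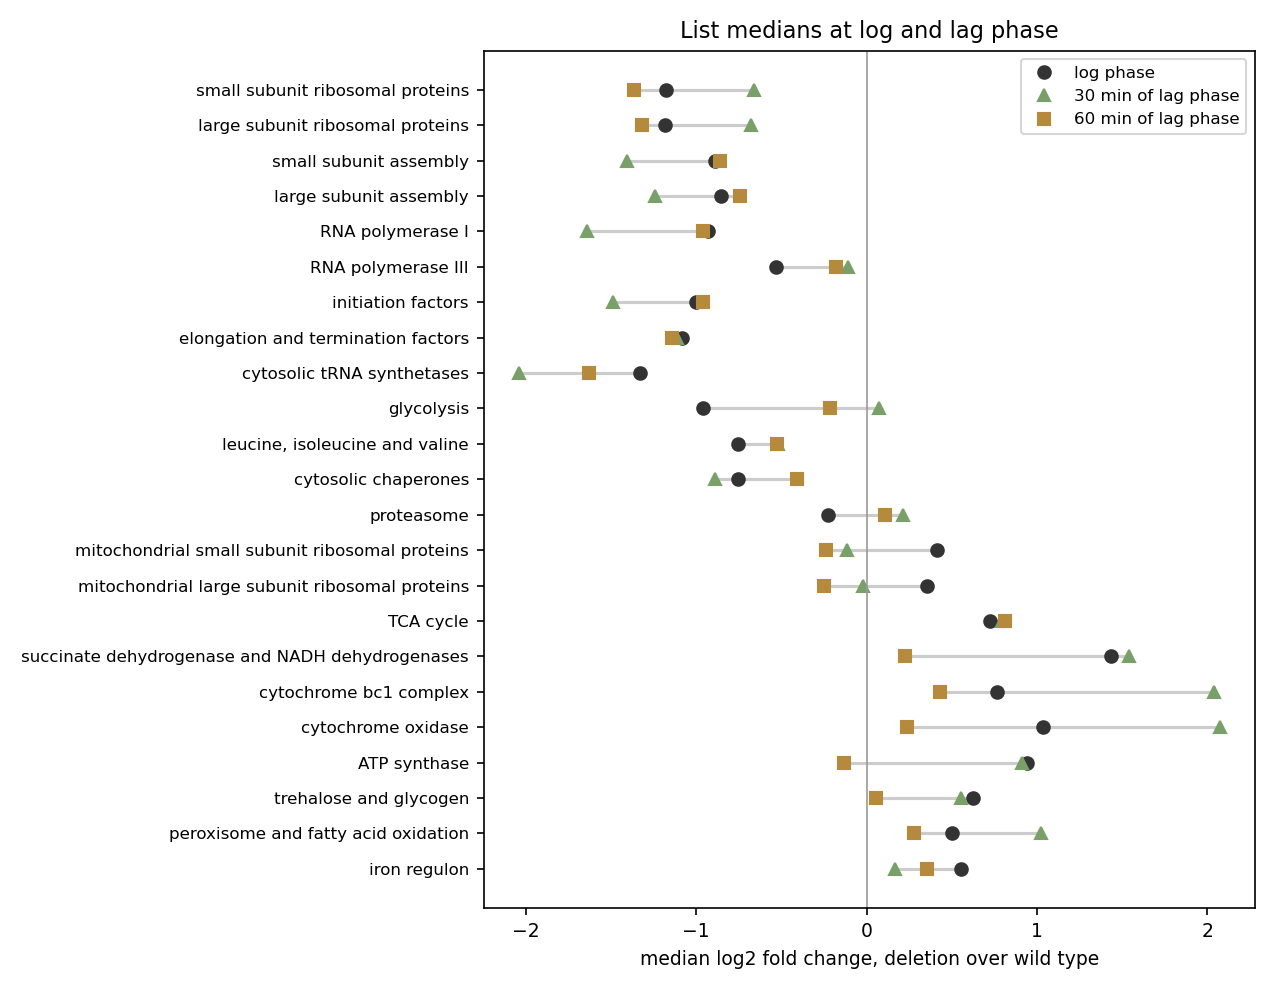
Median log2 fold change of deletion over wild type (horizontal axis) for 23 gene lists (rows) at log phase (circles) and at 30 (triangles) and 60 min (squares) of lag phase. Cytosolic ribosomal and translation lists are negative at each point, and the cytochrome oxidase, bc1 and ATP synthase lists are lower at 60 min than at log phase.

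The authors' deposited table gives its own log ratio for 4895 of the tested genes at log phase. Against the fold changes above, the slope was -0.953 and the correlation across genes -0.972, so its sign is wild type over deletion. After turning the sign 476 genes differed in direction, with a median difference of 0.11.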

How the data were processed

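Polyadenylated RNA of the 18 S. paradoxus libraries (6 groups of 3) was sequenced as paired reads of 25 bases, per the labels' protocols. The authors deposited expected counts per gene, and the submitters' processing notes name Bowtie 1, RSEM 1.2.11 and edgeR. The labels and notes used here name neither the S. paradoxus build nor the strand setting. Of the values 94.1% were whole to within 1e-06. The authors' deposited log2 ratio was used for a comparison of sign and size only.

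Expected counts were rounded and fitted with edgeR 4.0.16 in R 4.3.3 (filterByExpr, TMM factors, quasi-likelihood F test) over the 18 libraries, which share one estimate of the spread. Contrasts were deletion minus wild type at each phase, and the log phase effect minus the 60 min effect, with Benjamini-Hochberg adjustment over 4908 genes. The script was tested on simulated data. The share of counts in ribosomal protein genes was compared by an exact permutation test.

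Of 6038 genes 4891 carry an S. cerevisiae name through the authors' orthogroups. A gene belongs to one of 60 lists if most or an equal part of its orthogroup's names do. The genes named were drawn from SFP1, the tested mating type, auxotrophic marker and flocculin genes, the 12 largest changes each way with an average log2 CPM of at least 4 and groups that do not overlap, the leading 4 genes of each list by the same criteria, all genes of lists with at most 12 tested genes, and a fixed panel. Genes could also be added after their values were seen. Not every gene of these sets is printed above. The members and lists were chosen with earlier results of these data known. Alternatives were RLE factors, library size alone, no filter, DESeq2 1.42.0, the log phase libraries alone, TMM without ribosomal protein genes, the replicate letter as a block, each log phase or 60 min library left out in turn, and the shallow 30 min library left out.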

Additional observations from a re-analysis of the deposited data

Results flagged for a closer look

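The results below are genes for which the difference between deletion and wild type at log phase departed from that at 60 min of lag phase, by edgeR's quasi-likelihood test of the difference with Benjamini-Hochberg adjustment over all 4908 genes. This held for 89 of the genes named above, with values on the log2 scale as the log phase change minus the 60 min change. Where a log phase change was negative, a negative value is a larger fall at log phase, or a fall there and a rise at 60 min.

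Among the mating type genes, the log phase change was below that at 60 min with differences of -5.48 for STE2, -5.09 for Spar_9.174 and -4.66 for STE6. It was above the 60 min change with differences of 9.43 for HMLALPHA2/HMRA2 (Spar_3.145), 8.62 for MF(ALPHA)1/MF(ALPHA)2 (Spar_16.136), 6.89 for HMLALPHA1/MATALPHA1 (Spar_3.146), 5.71 for STE3 and 2.98 for SAG1. Smaller ones were 1.93 for AFB1.

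Among ribosomal proteins, ribosome assembly, polymerases and regulators, the log phase change was below that at 60 min with differences of -1.03 for SCH9, -0.94 for NSR1, -0.87 for NOP1, -0.76 for ARB1 and -0.54 for RPP0. Further values were -0.45 for RPA190. Differences above the 60 min change were 1.18 for RPB5, 0.84 for RRN3, 0.65 for RPS22A/RPS22B (Spar_10.43) and 0.50 for RPC40.

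Among translation and chaperones, the log phase change was below that at 60 min with differences of -1.36 for ERO1, -1.26 for HAC1, -1.08 for Spar_16.222, -1.07 for EUG1/PDI1 (Spar_4.890) and -0.59 for HEF3/NEW1/YEF3 (Spar_12.363). The next values were -0.57 for TEF1/TEF2 (Spar_16.436), -0.52 for EFB1 and -0.48 for PRT1. A change above that at 60 min was seen with differences of 0.98 for HSP104.

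Among glycolysis, fermentation and hexose transport, the log phase change was below that at 60 min with differences of -1.85 for TDH1/TDH2/TDH3 (Spar_10.280), -1.80 for Spar_8.176, -1.69 for GPP1/GPP2 (Spar_9.128), -1.49 for Spar_15.91 and -1.19 for PGK1. Smaller ones were -0.83 for TDH1/TDH2/TDH3 (Spar_7.549). It was above the 60 min change with differences of 1.97 for CDC19/PYK2 (Spar_15.566) and 1.04 for HXK1/HXK2 (Spar_7.15).

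Among respiration and the TCA cycle, the log phase change was below that at 60 min with differences of -0.97 for FUM1. Differences above the 60 min change were 2.32 for CIT1/CIT2 (Spar_3.84), 1.74 for SDH2, 1.24 for ATP14, 1.21 for ATP3 and 1.201 for MRP21. Further values were 1.09 for HAP4, 1.09 for COR1/MAS1 (Spar_2.78), 1.02 for COX4, 0.99 for CIT1/CIT2 (Spar_14.363) and 0.78 for RIP1. Smaller ones were 0.53 for CYT1.

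Among alternative carbon, fat and reserves, the log phase change was below that at 60 min with differences of -1.198 for MDH2/MDH3 (Spar_15.44) and -0.77 for MAE1. A change above that at 60 min was seen with differences of 2.72 for EEB1/EHT1/MGL2 (Spar_16.233), 1.75 for ACH1, 1.67 for GSY1/GSY2 (Spar_12.373), 1.44 for TPS1/TPS3/TSL1 (Spar_2.283) and 0.87 for TPS1/TPS3/TSL1 (Spar_13.42). The next values were 0.64 for TPS1/TPS3/TSL1 (Spar_13.454).

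Among amino acids and nucleotides, the log phase change was below that at 60 min with differences of -2.51 for MET6, -1.96 for GCV1, -1.95 for GCV3, -1.76 for PRO1/YHR033W (Spar_8.107) and -1.36 for GCV2. Smaller ones were -1.15 for LEU4/LEU9 (Spar_14.232), -1.11 for ILV2, -1.07 for LYS2 and -0.75 for FUR1. It was above the 60 min change with differences of 1.23 for ARO3/ARO4 (Spar_2.426), 0.96 for ARO10 and 0.82 for ARO8/ARO9 (Spar_8.229).

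Among stress and metals, the log phase change was below that at 60 min with differences of -2.96 for DDR48, -2.91 for HSP12, -2.18 for PHM7/RSN1 (Spar_13.459), -1.202 for PRX1 and -0.52 for UBI4. Differences above the 60 min change were 3.22 for Spar_12.322, 2.91 for CTR3, 1.55 for OYE2/OYE3 (Spar_16.156), 1.49 for Spar_14.431 and 1.19 for CCC2. Further values were 1.11 for Spar_5.9.

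Among the remaining genes, of the cell surface, the cell cycle or without a name, the log phase change was below that at 60 min with differences of -3.25 for Spar_9.220, -2.99 for Spar_9.221, -2.97 for Spar_9.223, -2.91 for NCA3/SIM1/SUN4/UTH1 (Spar_10.123) and -2.90 for SRL3/WHI5 (Spar_11.383). The next values were -1.65 for Spar_4.779, -0.74 for Spar_4.788 and -0.61 for CLN3. A change above that at 60 min was seen with differences of 2.10 for Spar_3.219 and 0.73 for Spar_13.519.

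The call was in opposite directions at the 2 phases in 8 genes, namely SRL3/WHI5 (Spar_11.383) (-1.96 at log phase and 0.94 at 60 min), Spar_12.322 (2.21 at log phase and -1.01 at 60 min), CTR3 (1.07 at log phase and -1.84 at 60 min), LEU4/LEU9 (Spar_14.232) (-0.47 at log phase and 0.68 at 60 min), Spar_4.788 (-0.32 at log phase and 0.42 at 60 min), HAC1 (-0.54 at log phase and 0.71 at 60 min), SCH9 (-0.65 at log phase and 0.38 at 60 min), Spar_9.174 (-4.03 at log phase and 1.05 at 60 min). The values for HMLALPHA2/HMRA2 and HMLALPHA1/MATALPHA1 rest on wild type log libraries at 0 counts and depend on the prior count of the fit. The log phase wild type has a cell markers and the other groups alpha cell markers. Mating type, growth phase and any other difference between the wild type strains therefore cannot be told apart in these differences, and the part of each was not tested.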

How the results depend on the processing

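The direction of the log phase comparison depended most on the scaling. Library size alone gave 2885 higher and 676 lower genes, and for the difference between log phase and 60 min 847 above and 494 below. Without the filter on low counts 715 genes were above in that difference, and with DESeq2 501 were below. A fold change of at least 2 as a further condition, an alternative added after seeing the data, left 338 higher and 478 lower. Leaving out each log phase library in turn, or each 60 min library for the difference, gave 1098 to 1145 higher and 1482 to 1549 lower at log phase, 363 to 438 above and 618 to 759 below in the difference, and -4.28 to -3.90 percentage points for the share of counts in ribosomal protein genes. Leaving out the shallow deletion library of 30 min, also added later, gave 1235 and 1625 at log phase. The replicate block gave 1182 and 1583 at log phase and 410 and 764 in the difference. Same-letter libraries did not deviate together (correlations of 0.012, -0.052 and -0.057 for A, B and C), so the letters were taken as names only.

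With library size alone 6 of the named genes changed sign, CLN3 (Spar_1.27) to 0.00093, Spar_13.519 to 0.11, LEU4/LEU9 (Spar_14.232) to 0.028, Spar_4.788 to 0.18, FLO8 to 0.47 and GCN4 to 0.37. Of these FLO8 and GCN4 became called higher and the rest lost their call. Over all settings 1829 values of named genes kept direction and side of the threshold, and beside those 6 changes of sign 25 lost the call and 2 gained it. Of the counts per list 1510 stayed within 1.5 times and 170 moved beyond. The cause was not tested. The depth of deletion A at 30 min, 34081 counts, limits the 30 min values.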
